A study of Mus musculus with 4 samples.

Results

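The interferon response genes described here are 34 mouse genes taken by symbol from a list of interferon targets. They comprise 21 genes typical of type I interferon, 6 genes typical of interferon gamma (the guanylate-binding proteins Gbp2, Gbp3, Gbp4 and Gbp7 with the chemokines Cxcl9 and Cxcl10), the factor Irf1 with 3 immunity-related GTPases, and 3 antigen processing genes. Of the 34 members, 32 stood in the gene lists of all 4 libraries, among 27040 shared genes, and they were followed in 18823 cells. Mx1 was in 1 of the 4 lists and Mx2 in none, so both were left out, which leaves 19 type I members.

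The cells came from mouse Achilles tendon after an injury treatment that the labels call B/T and do not spell out, profiled as single cells with the 10x Genomics 3′ chemistry. There is 1 library per group: Vegfc CRE tendon at day 7 of B/T, and Prox1 eGFP tendon at day 0 without treatment, at day 7 of B/T and at day 21 of B/T. Cells of 5 tendons were pooled in each group, so animals cannot be told apart and no spread between animals can be given. The names indicate a Prox1 reporter and a Vegfc-driven Cre; the alleles, strain, age and sex are not given in the sources used here. The protocol describes a sort for Prox1-expressing cells, whereas the cell type label of the samples reads unsorted. Prox1, the factor that defines lymphatic endothelium, had a UMI in 1.15% of Vegfc CRE cells, and in 8.84%, 96.8% and 86.7% of Prox1 eGFP cells at days 0, 7 and 21. The tendon gene Tnmd had a UMI in 12.5% of Vegfc CRE cells, and in 0%, 0.246% and 3.70% of Prox1 eGFP cells at days 0, 7 and 21.

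Interferons are secreted proteins that cells release on sensing viral nucleic acid or on immune activation. Type I interferons bind the receptor Ifnar1/Ifnar2, which acts through factors that include Stat2 and Irf9 on a DNA element called the interferon-stimulated response element (ISRE). Interferon gamma, made chiefly by T and NK cells, binds Ifngr1/Ifngr2 and acts on the gamma-activated site (GAS) and through Irf1. Many target genes answer to both kinds, so the names type I and gamma-type used here are those of gene lists, not of a measured cytokine.

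Both elements can be seen in the promoter windows of members whose values are followed below. RefSeq promoter windows of 300 bases, on build GRCm38.p6, were at hand for 27 of the 34 members. Each window runs from 250 bases before the start to 50 bases after it. The 10-letter ISRE core GAAANNGAAA, searched on both strands (TTTCNNTTTC), was found for 14 of the 27 genes, or 51.9%, against 3.99% of the 27025 genes with a window. The 9-letter GAS pattern TTCNNNGAA, which reads alike on both strands, was found for 7 of the 27, or 25.9%, against 9.55% of all genes. The ISRE core was found for 8 of 15 type I, 4 of 5 gamma-type, 2 of 4 Irf1 and GTPase, and 0 of 3 antigen processing genes, so these letters did not separate the type I from the gamma-type list. The only matches of Ifih1 (an ISRE core) and Ifi35 (a GAS) lay after the start. A match describes the letters only. The sites below are printed because their genes span both lists and the cell types set apart further on. Each runs 5′ to 3′ along the strand on which the motif reads, with 1 motif in capitals. In Isg15, Bst2 and Irgm1 further motifs, not marked, overlap the marked one.
Ifit1 (chr19:34640798-34640819, 85 bases before the start): cagtgaGAAACTGAAActgaga
Rsad2 (chr12:26456557-26456578, 120 before): ttttctGAAAATGAAAgttgga
Isg15 (chr4:156200875-156200896, 72 before): gaaaagGAAACCGAAAcagaaa
Bst2 (chr8:71537581-71537602, 124 before): gaaaatGAAACTGAAAggctgc
Gbp2 (chr3:142620598-142620619, 59 before): gacagtGAAAGTGAAActaaaa
Cxcl10 (chr5:92349087-92349108, 213 before): gctttgGAAAGTGAAActtacc
Irgm1 (chr11:48871429-48871450, 24 before): gaaataGAAACCGAAActgatt
Irf1, GAS (chr11:53769918-53769938, 90 before): cctgatTTCCCCGAAatgatg
Psmb8, GAS (chr17:34198092-34198112, 97 before): ccgctgTTCCCAGAAgatgcc
The gamma-type genes Gbp2 and Cxcl10 carried the same core pattern as the type I genes, while Irf1 and Psmb8 held a GAS and no ISRE core in these windows. The 250 bases upstream of Gbp7 (chr3:142530086-142530335, plus strand) are shown whole because they held both motifs apart from each other, 2 GAS patterns and then an ISRE core read on the opposite strand.
Gbp7 upstream: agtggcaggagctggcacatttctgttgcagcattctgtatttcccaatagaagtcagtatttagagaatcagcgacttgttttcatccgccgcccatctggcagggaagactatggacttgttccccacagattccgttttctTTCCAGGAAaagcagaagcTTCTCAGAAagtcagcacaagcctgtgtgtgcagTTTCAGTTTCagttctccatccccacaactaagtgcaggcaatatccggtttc

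The libraries held 8711 barcodes for Vegfc CRE day 7, and 717, 5051 and 6704 for Prox1 eGFP at days 0, 7 and 21, with 92568978, 6761289, 59312181 and 59894792 unique molecular identifiers (UMIs, 1 per captured mRNA molecule). After filtering, 6966, 690, 4871 and 6296 cells were left in the same order, with a median of 7458.5 to 8473 UMIs a cell in the 3 treated libraries and 6978 at day 0. Between any 2 libraries 1 to 10 cell barcodes were shared. Clustering without the members gave 27 clusters; 22 were named by marker genes and 5, with 1676 cells or 8.90%, were left unnamed. Marker-based names are written with the ending "-like". For short, lymphatic endothelial-like and vascular endothelial-like cells are called lymphatic-like and vascular-like cells. In Prox1 eGFP at days 7 and 21, lymphatic-like cells made up 19.95% and 29.3% of cells, and muscle progenitor-like cells 70.9% and 52.1%. The share of cells with a Prox1 UMI in these libraries was therefore not the share of lymphatic-like cells. The lymphatic-like class had a UMI of all 8 of its markers at both days, summing to 21835 CPM (UMIs of the genes per 1000000 UMIs of the cell group) at day 21 and 13481 CPM at day 7; the muscle progenitor-like class, all 7 of its own, also held lymphatic markers at 989 and 1495 CPM. Levels are a gene's CPM within the cell group; 3′ counts give 1 tag a molecule, so levels of different genes can be set side by side without a length term. With 1 library a group no test between groups can be made: brackets give exact 95% Poisson intervals of a level, exact conditional binomial intervals of a ratio and Clopper-Pearson intervals of a share, and all cover counting error only.

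The members were spread unevenly over the cell types, and each list peaked in another class. Summed over the 19 type I members, monocyte-like cells of Vegfc CRE day 7 stood highest at 3189.6 CPM [3129 to 3251], followed by macrophage-like cells at 2599 CPM in Vegfc CRE day 7 and 2487 CPM in Prox1 eGFP day 21. Vascular-like cells held 1149 CPM in Vegfc CRE day 7, and 1732 CPM at day 21 and 1169.5 CPM at day 7 in Prox1 eGFP. Lymphatic-like cells, the cells the reporter is meant to mark, held 972 CPM at day 21 and 1061 CPM at day 7. Muscle progenitor-like cells, the most numerous class, held 210.2 CPM at day 21 and 292 CPM at day 7, and mature muscle-like cells 58.2 and 103 CPM. The gap between the highest and the lowest class was far beyond the counting intervals. Much of the type I sum came from 2 abundant members: without Ifi27l2a, a small interferon-induced protein, and Bst2 (tetherin, which holds budding virus at the cell surface), neutrophil-like cells led at 1337 CPM [1297 to 1378], before monocyte-like cells at 1047 CPM and vascular-like cells of day 21 at 976 CPM.

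**Figure D1:**
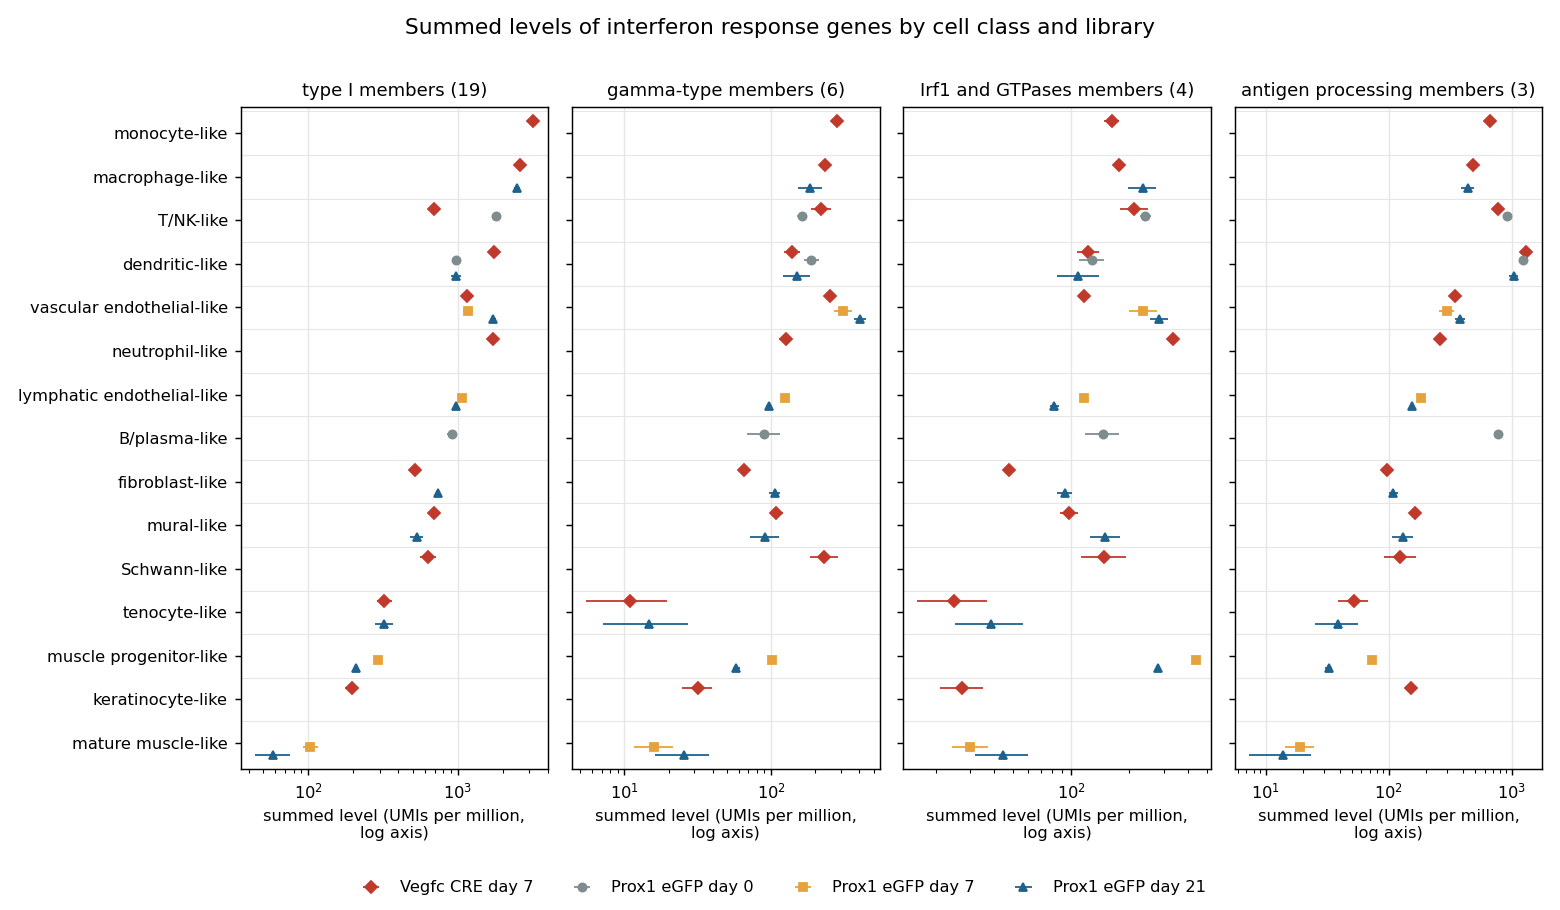
Summed level of each member list (CPM, log axis) in the cell classes with at least 30 cells, 1 point for each class and library, with exact 95% Poisson intervals. Type I members peaked in monocyte-like and macrophage-like cells, gamma-type members in vascular endothelial-like cells, Irf1 with the GTPases in muscle progenitor-like cells of day 7, and antigen processing genes in dendritic-like cells.

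The effector genes of the type I list differed from class to class rather than scaling together. Isg15, a ubiquitin-like protein joined to other proteins in the antiviral state, stood at 522 CPM in neutrophil-like cells and 301 CPM in monocyte-like cells. In vascular-like cells Isg15 stood at 114 CPM in Vegfc CRE day 7, and at 256 and 165 CPM in Prox1 eGFP at days 21 and 7. In lymphatic-like cells it stood at 136 and 138 CPM at days 21 and 7, and in muscle progenitor-like cells at 33.7 and 45.3 CPM. Every class of at least 30 cells held Isg15, with mature muscle-like cells at the low end, at 14.8 and 8.33 CPM at days 21 and 7. Ifi27l2a was highest in leukocytes, with 1899 CPM in monocyte-like cells, 1199 CPM in macrophage-like cells of Vegfc CRE day 7 and 5.03 CPM in muscle progenitor-like cells of day 21. Bst2 was high in endothelium and in part of the leukocytes: it stood at 518 CPM in vascular-like, 497 CPM in macrophage-like and 586 CPM in dendritic-like cells of Vegfc CRE day 7, at 419 and 440 CPM in lymphatic-like cells of days 21 and 7, and at 23.7 CPM in neutrophil-like cells.

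The 3 members of the oligoadenylate synthetase family were highest in neutrophil-like, monocyte-like and macrophage-like cells of Vegfc CRE day 7. Oasl2, a synthetase-like protein, stood at 166, 86.6 and 73.8 CPM in these classes, and at 35.6 CPM in vascular-like and 11.8 CPM in fibroblast-like cells of the same library. In lymphatic-like cells Oasl2 had 0.276 CPM at day 21 and 0.729 CPM at day 7, on 5 and 16 UMIs. Oas2 stood at 30.4, 20.4 and 22.2 CPM in the 3 myeloid classes, and had 0 and 1 UMI in lymphatic-like cells of days 21 and 7. Oas3, which like Oas2 makes the second messenger that activates RNase L, stood at 57.7 CPM in neutrophil-like cells and was at 0 in lymphatic-like cells of both days. Vascular-like cells were not low in every effector: Rsad2 (viperin, an enzyme that blocks viral RNA synthesis) had 120 CPM in neutrophil-like cells and 88.7 CPM in vascular-like cells of day 21, against 2.59 CPM in lymphatic-like cells of the same library. Ifi44, an interferon-induced cytoplasmic protein, was the reverse case, with 30.3 and 32.5 CPM in lymphatic-like cells of days 21 and 7, 22.2 to 36.4 CPM in vascular-like cells, and 16.3 CPM or less in the other named classes.

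**Figure D2:**
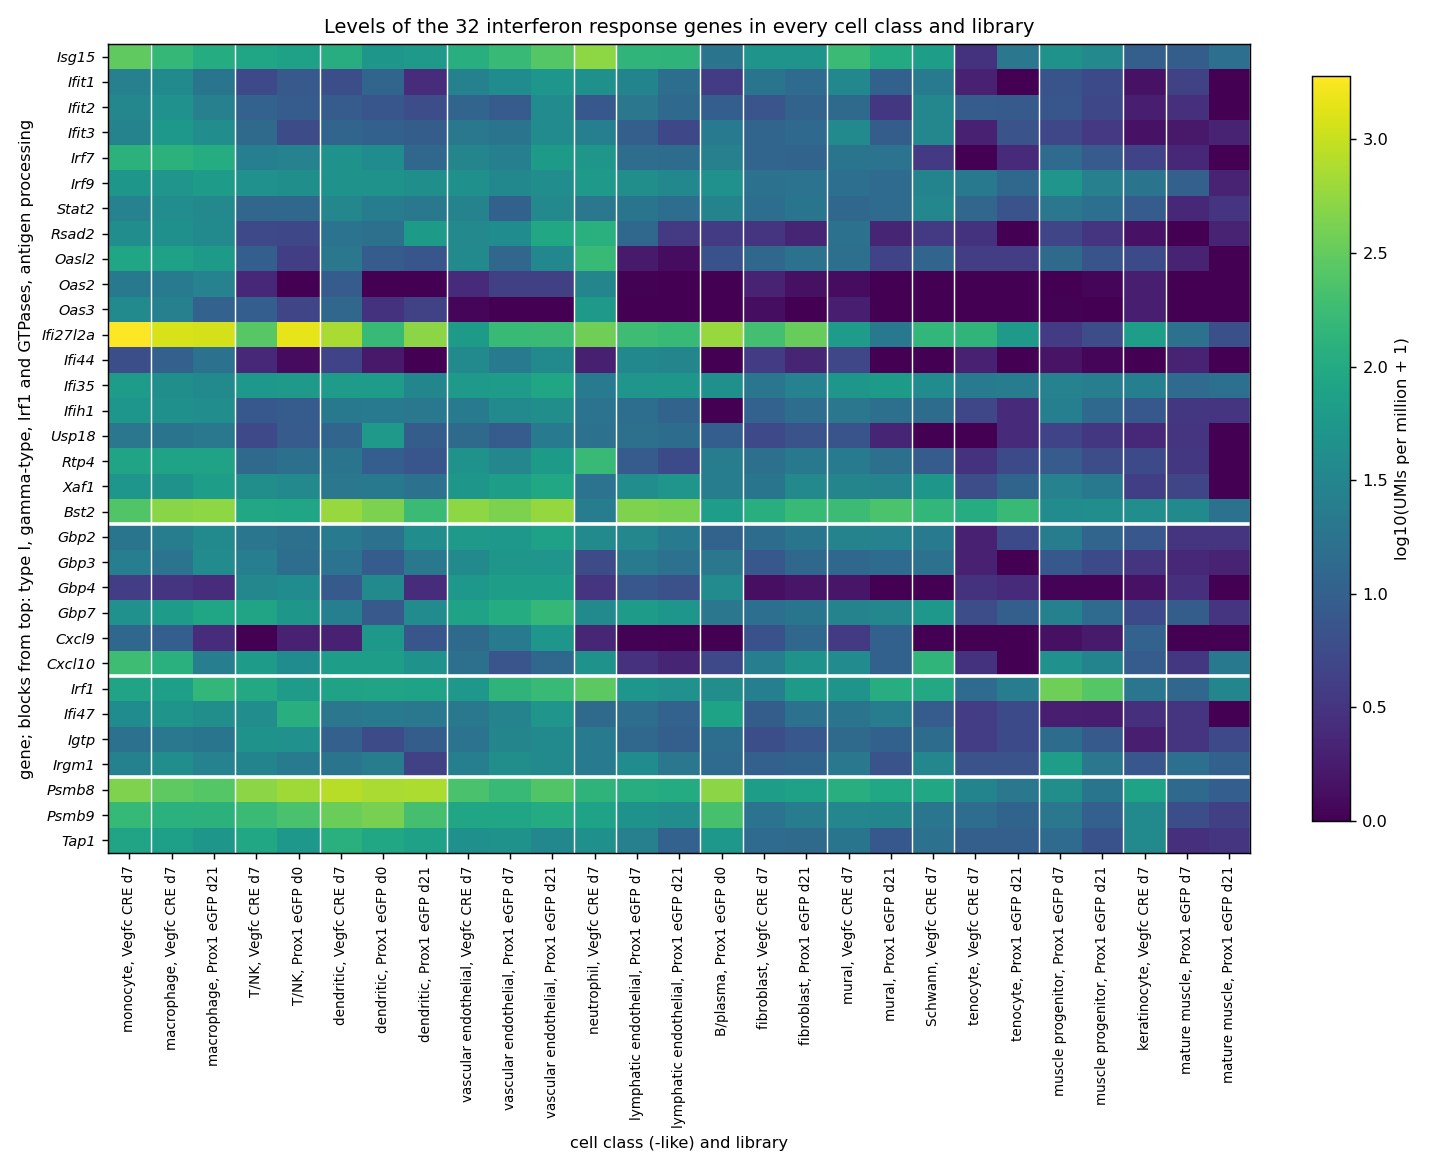
Level of each of the 32 members (colour: log10 of CPM plus 1) in each cell class and library with at least 30 cells. Lymphatic and vascular endothelial-like columns share Bst2 and Ifi44 and part in Rsad2, Oasl2 and Cxcl9, and muscle progenitor-like columns stand out in Irf1, and the day 7 column also in Irgm1.

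Gamma-type members were highest in vascular-like cells of Prox1 eGFP, at 404 CPM [370 to 440] and 309 CPM [268 to 356] at days 21 and 7. In Vegfc CRE day 7 monocyte-like cells led at 280 CPM, before vascular-like cells at 252 CPM [241 to 263], and in Prox1 eGFP lymphatic-like cells had 96.0 CPM at day 21 and 125 CPM at day 7. The single genes behind these sums differed by class. Gbp4, a GTPase that attacks the vacuoles of intracellular microbes, stood at 55.3 CPM in vascular-like cells of Vegfc CRE day 7 and at 66.5 and 66.6 CPM in those of Prox1 eGFP at days 21 and 7. In lymphatic-like cells Gbp4 stood at 5.46 and 6.83 CPM at days 21 and 7, and in muscle progenitor-like cells below 0.1 CPM. Cxcl9, which draws T cells through Cxcr3, stood at 55.0 CPM in dendritic-like cells of day 0 and at 12.7, 51.5 and 20.6 CPM in vascular-like cells of Vegfc CRE day 7, Prox1 eGFP day 21 and Prox1 eGFP day 7. Lymphatic-like cells had 0 UMIs of Cxcl9 at day 21, where 3 UMIs would be 0.165 CPM, and 1 at day 7. Cxcl10, a second Cxcr3 ligand, was mainly myeloid instead, with 179 CPM in monocyte-like cells and 121 CPM in macrophage-like cells of Vegfc CRE day 7, and stood higher in muscle progenitor-like cells (28.8 and 44.7 CPM at days 21 and 7) than in vascular-like cells (6.35 to 15.2 CPM). Gbp4 shares its strand and part of its span with Gbp8 and Gbp9, so reads between these genes may be split.

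The transcription factor Irf1 and the immunity-related GTPases followed a pattern of their own. Irf1 stood at 255 CPM in muscle progenitor-like cells of day 21 and 356 CPM in those of day 7, against 283 CPM in neutrophil-like cells and 44.5 and 52.2 CPM in lymphatic-like cells of days 21 and 7. The GTPase Irgm1, which controls the other members of its family at membranes, had 18.7 CPM in muscle progenitor-like cells of day 21 and 68.7 CPM in those of day 7, against 18.9 and 38.9 CPM in lymphatic-like and 34.8 and 41.3 CPM in vascular-like cells of the same days. The GTPase Ifi47 was nearly missing from muscle progenitor-like cells of day 7, at 0.899 CPM, and stood at 113 CPM in T/NK-like cells of day 0. Muscle progenitor-like cells were thus high in Irf1 at both days and in Irgm1 at day 7, and low in Ifi47 and Gbp4.

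The antigen processing genes were high in antigen-presenting and lymphoid cells. Psmb8, Psmb9 (the immunoproteasome subunits) and Tap1 (a subunit of the peptide transporter that loads MHC class I) summed to 1313 CPM in dendritic-like cells of Vegfc CRE day 7, and to 1033 and 1228 CPM in those of Prox1 eGFP at days 21 and 0. T/NK-like cells had 777 CPM in Vegfc CRE day 7 and 909 CPM in Prox1 eGFP day 0. Lymphatic-like cells had 154 and 182 CPM at days 21 and 7, and muscle progenitor-like cells 32.5 and 72.7 CPM.

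Transcripts of the cytokines themselves were scarce. Ifng was found chiefly in T/NK-like cells, at 205 CPM [173 to 241] in Vegfc CRE day 7, where 41 of 156 cells had a UMI, against 15.6 CPM [11.9 to 20.1] in Prox1 eGFP day 0, where 20 of 400 had one. Ifnb1 had 6 UMIs in 2 macrophage-like cells and 1 UMI in monocyte-like cells of Vegfc CRE day 7. No class had a UMI of Ifna1, Ifna2, Ifna4, Ifnk, Ifnl2 or Ifnl3. Of the receptors, Ifngr1 stood at 451 CPM in monocyte-like cells, and at 412 CPM in T/NK-like cells of Vegfc CRE day 7 against 133 CPM in those of Prox1 eGFP day 0. Ifnar2 stood at 176 CPM in lymphatic-like cells of day 21 and 106 CPM in those of day 7. Ifng and Ifnb1 were thus seen in few cells, while receptor transcripts were found in every class of at least 30 cells.

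High-scoring cells were counted to see whether the response lay in all cells of a class or in some. Each cell was thinned to 2000 UMIs, shallower cells were left out, and a cell with a UMI of at least 4 of the 19 type I members was called high-scoring. In Vegfc CRE day 7, 249 of 981 macrophage-like cells were high-scoring, or 25.4% [22.7 to 28.2]. That share was 14.9% with doublet calls kept in, 14.8% under a stricter cell filter and 10.9% without Ifi27l2a and Bst2. Monocyte-like cells (21.4%) led in the first case and neutrophil-like cells (17.9% and 10.99%) in the other 2. The share does not cover unnamed cluster 10, which held 8 of 8 macrophage and 4 of 7 osteoclast markers. In Vegfc CRE day 7, 30 of 557 cells of cluster 10 were high-scoring, or 5.39% [3.66 to 7.60]. Monocyte-like cells had 21.6% [18.1 to 25.4] and neutrophil-like cells 14.9% [12.4 to 17.8]; the neutrophil-like value rests on 710 of 1349 cells, as 639 were too shallow. In vascular-like cells the share was 11.01% [8.70 to 13.7] in Vegfc CRE day 7, and 20.9% [13.7 to 29.7] and 6.06% [0.743 to 20.2] in Prox1 eGFP at days 21 and 7. Lymphatic-like cells had 86 of 1807, or 4.76% [3.82 to 5.84], at day 21 and 59 of 968, or 6.10% [4.67 to 7.79], at day 7, with overlapping intervals. Without Ifi27l2a and Bst2 the share was 13.6% in vascular-like and 1.77% in lymphatic-like cells of day 21. Muscle progenitor-like cells had 0.496% at day 21 and 1.14% at day 7. No tenocyte-like, keratinocyte-like or mature muscle-like cell was high-scoring. A count of 0 of 136 mature muscle-like cells of day 7 allows up to 2.68%, and 0 of 73 tenocyte-like cells of Vegfc CRE day 7 up to 4.93%. Unnamed cluster 9 held 6 of 7 tenocyte and 7 of 8 fibroblast markers. It had 4 of 484 high-scoring cells in Vegfc CRE day 7 and 1 of 89 in Prox1 eGFP day 21. The call is a range cut from a score: in lymphatic-like cells of day 21, 144 cells had 3 members, 44 had 4 and 23 had 5. Without thinning the shares were 70.5% in macrophage-like cells of Vegfc CRE day 7, 37.2% and 69.8% in lymphatic-like cells of days 21 and 7, and 5.03% and 10.3% in muscle progenitor-like cells.

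**Figure D3:**
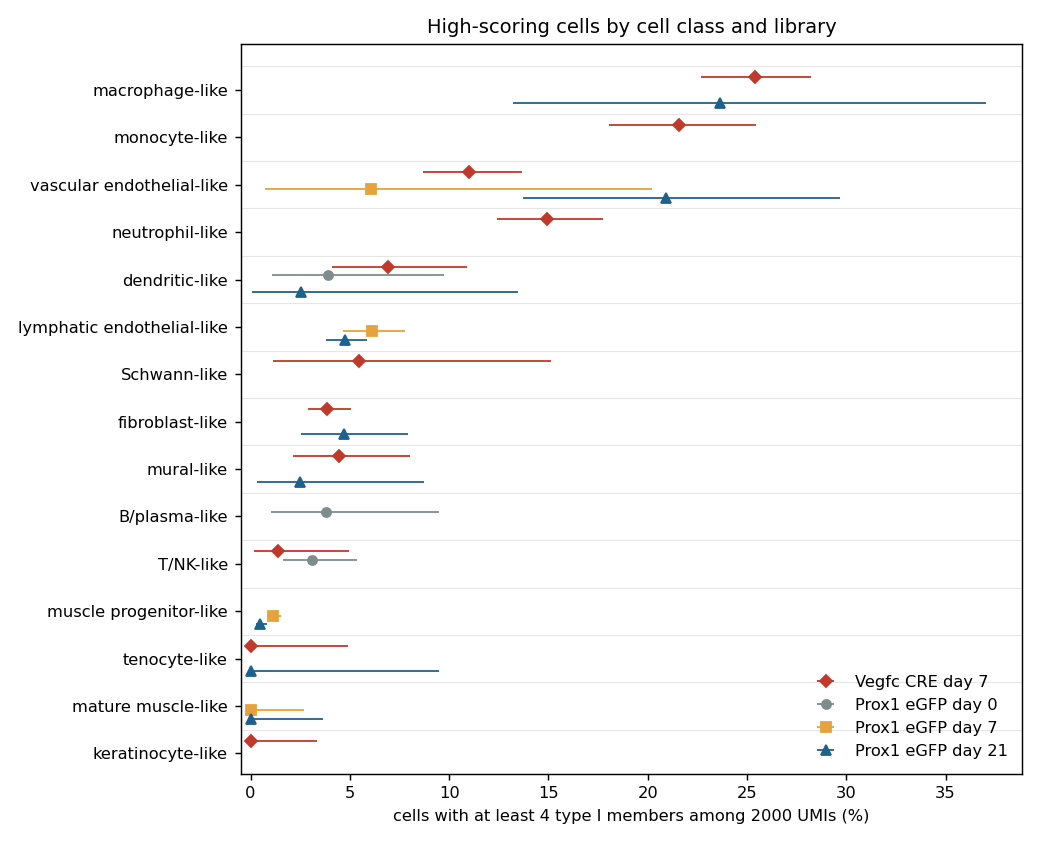
Percent of cells with at least 4 of the 19 type I members among 2000 UMIs, for each cell class and library, with exact 95% Clopper-Pearson intervals. Macrophage-like and monocyte-like cells of Vegfc CRE day 7 lie at 25.4% and 21.6%, muscle progenitor-like cells at 0.496% and 1.14%, and tenocyte-like, keratinocyte-like and mature muscle-like cells at 0.

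The share of high-scoring cells also differed between clusters of 1 class. Among vascular-like cells, cluster 17, led by Aqp7, Timp4 and Car4, held 40 of 165 high-scoring cells in Vegfc CRE day 7, or 24.2%, and 22 of 50 in Prox1 eGFP day 21, or 44.0% [29.99 to 58.7]. Cluster 8, led by Vwf, Ackr1 and Selp, had 6.46% in Vegfc CRE day 7 and 1 of 60, or 1.67% [0.0422 to 8.94], in Prox1 eGFP day 21. Both libraries that hold enough of the 2 clusters thus gave the same order. At day 21 Rsad2 stood at 205 CPM in cluster 17 and 4.10 CPM in cluster 8, Ifit1 (which binds viral RNA) at 109 and 10.9 CPM, and Cxcl9 at 120 and 1.37 CPM. In Vegfc CRE day 7 the same genes stood at 89.9 and 16.5 CPM, 52.0 and 18.3 CPM, and 42.0 and 3.59 CPM in clusters 17 and 8. Irf1 did not follow, with 145 CPM in cluster 17 and 178 CPM in cluster 8 at day 21. Among fibroblast-like cells of Vegfc CRE day 7, cluster 6 (led by Clec3b and Pi16) had 48 of 639 high-scoring cells, or 7.51%, and cluster 7 (led by Cxcl5 and Crabp1) 3 of 679, or 0.442%. In Prox1 eGFP day 21 the same clusters had 4.88% [2.55 to 8.37] and 3.33% [0.0844 to 17.2], with overlapping intervals. In muscle progenitor-like cluster 0, 1 of 608 cells was high-scoring at day 21, or 0.164% [0.00416 to 0.913]. At day 7 it was 38 of 2964, or 1.28% [0.909 to 1.76]. Cluster 1 had 15 of 2619 at day 21, or 0.573% [0.321 to 0.943], and 1 of 458 at day 7, or 0.218% [0.00553 to 1.21]. The intervals of the 2 clusters overlapped at both days, so their order is not settled.

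High-scoring cells held more gamma-type transcript than the rest of their class in most classes. This was so in 20 of the 22 pairs of a named class and a library with a high-scoring cell. Some of the 20 rest on very few cells. T/NK-like cells of Vegfc CRE day 7 and mural-like cells of day 21 each had 2 high-scoring cells with 1 gamma-type UMI. Vascular-like cells of Prox1 eGFP day 7 had 2 such cells with 2 UMIs, and Schwann-like cells 3 with 2 UMIs. Among the thinned UMIs, gamma-type members stood at 651 CPM in high-scoring and 131 CPM in other monocyte-like cells, and at 418 and 189 CPM in macrophage-like cells of Vegfc CRE day 7. In lymphatic-like cells they stood at 424 and 84.5 CPM at day 21 and at 788 and 119 CPM at day 7. In muscle progenitor-like cells of day 7 they stood at 513 and 101 CPM. The other 2 pairs went the opposite way, with 115 CPM in the 13 high-scoring and 238 CPM in other macrophage-like cells of Prox1 eGFP day 21, and 0 UMIs in the 1 high-scoring dendritic-like cell of day 21 against 132 CPM in the rest. The gamma-type genes had no part in the call.

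The balance of the 2 lists was given as gamma-type UMIs in percent of gamma-type and type I UMIs. The gamma-type share was 21.6% [20.5 to 22.6] and 25.9% [25.1 to 26.7] in muscle progenitor-like cells of days 21 and 7, where Cxcl10 and Gbp7 led the gamma-type sum. It was 17.97% in vascular-like cells of Vegfc CRE day 7, and 18.9% and 20.9% in those of Prox1 eGFP at days 21 and 7. It was 8.98% [8.59 to 9.40] and 10.5% [10.1 to 10.9] in lymphatic-like cells of days 21 and 7, 8.21% in macrophage-like, 8.07% in monocyte-like and 6.80% in neutrophil-like cells of Vegfc CRE day 7. In these classes the libraries of 1 class lay close together, but in 3 others they lay apart. Mature muscle-like cells had 30.4% [20.5 to 41.8] at day 21 and 13.4% [9.96 to 17.4] at day 7. Dendritic-like cells had 7.32% in Vegfc CRE day 7, and 13.3% and 16.2% in Prox1 eGFP at days 21 and 0. T/NK-like cells had 24.0% [20.8 to 27.5] in Vegfc CRE day 7 and 8.18% [7.58 to 8.81] in Prox1 eGFP day 0. Ifi27l2a differed between the T/NK-like libraries too, with 266 CPM in T/NK-like cells of Vegfc CRE day 7 and 1424 CPM in those of Prox1 eGFP day 0; line, day and treatment cannot be told apart between these libraries. Without Ifi27l2a and Bst2 the gamma-type share was 30.6% in vascular-like cells and 20.5% in macrophage-like cells of Vegfc CRE day 7, and 22.1% in lymphatic-like cells of day 7.

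**Figure D4:**
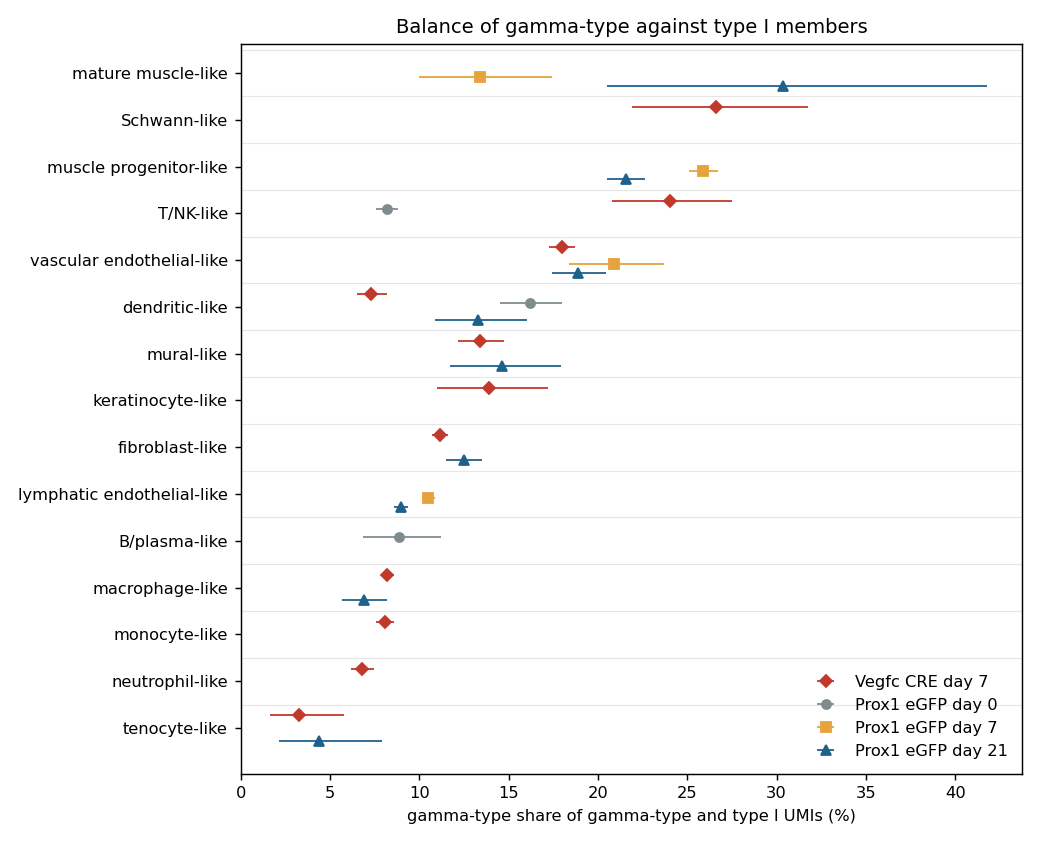
Gamma-type UMIs in percent of gamma-type and type I UMIs, for each cell class and library, with exact 95% Clopper-Pearson intervals. Muscle progenitor-like and vascular endothelial-like cells lie between 17.97% and 25.9%, and lymphatic endothelial-like, macrophage-like, monocyte-like and neutrophil-like cells between 6.80% and 10.5%.

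Between days 7 and 21 of Prox1 eGFP, lymphatic-like cells held less of most members at the later day, by modest factors. The type I sum differed by −0.13 on the log2 scale [−0.15 to −0.10] and the gamma-type sum by −0.38 [−0.46 to −0.29], day 21 over day 7. Of 29 members with at least 10 UMIs over both days (all but Oas2, Oas3 and Cxcl9), 6 stood 2-fold or more below day 7 and 0 as far above it; over all 13632 genes tested these shares were 8.07% and 3.57%. The members' median was −0.33 and that of all genes −0.17. Rsad2 had 47 UMIs at day 21 and 253 at day 7, a difference of −2.15 [−2.63 to −1.70]. Few cells carried it: 15 of 1842 had a UMI at day 21 and 22 of 972 at day 7, with 55.3% and 39.1% of the UMIs in 1 cell, so the difference rests on few cells. In mature muscle-like cells of day 7 Rsad2 was at 0, where 3 UMIs would be 1.04 CPM. Ifit1 stood at 14.5 CPM at day 21 and 29.6 CPM at day 7 (−1.03), and Ifit3, a partner of Ifit1, at 4.08 and 8.70 CPM (−1.09). Tap1 stood at 9.82 and 26.0 CPM (−1.40), Irgm1 at 18.9 and 38.9 CPM (−1.04), and Oasl2 had 5 and 16 UMIs (−1.40 [−3.21 to 0.11]). Isg15 stood level, at 136 CPM at day 21 and 138 CPM at day 7, and Xaf1, a pro-apoptotic interferon target, was the only member with an interval above 0, at 50.6 and 39.8 CPM (0.35).

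The lymphatic clusters did not all follow the class. Within cluster 3, led by Lyve1 and Reln, the type I sum differed by −0.32 and the gamma-type sum by −0.68, and within cluster 4, led by Clca3a1, by −0.22 and −0.40. Within the dividing cells of cluster 18, 45 at day 21 and 104 at day 7, the type I sum differed by 0.21 [0.10 to 0.33] and the gamma-type sum by −0.35. The median cell held 8831 UMIs at day 21 and 19011.5 at day 7, and the part of this depth gap in the differences was not tested. The day 7 library also has another gene list, whose part in all day 21 over day 7 comparisons was not tested. Macrophage markers summed to 34.2 CPM at day 21, with Adgre1 at 0. Scaling by TMM placed the centre of all genes at −0.15. It gave 0.02 for the type I sum, so the direction of that sum rests on the scaling. The gamma-type sum stayed below 0, at −0.23. At that scaling 3 members were at least 2-fold lower, and the share over all genes was not counted. None of the 5 receptors and 12 signalling genes tested was 2-fold apart, with Ifnar2 at 0.74, and of 29 other interferon targets 1 (Oasl1, −2.35) was at least 2-fold lower and 0 higher.

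Muscle progenitor-like cells held less of the members at day 21 than at day 7. The type I sum differed by −0.47 [−0.53 to −0.42], the gamma-type sum by −0.82 [−0.92 to −0.72], and antigen processing genes by −1.16 [−1.29 to −1.04]. Of 29 members tested (all but Oas2, Oas3 and Gbp4), 9 were at least 2-fold lower and 0 higher, against 10.9% and 3.71% of all 13677 genes; the medians were −0.64 for the members and −0.24 for all genes. Irgm1 stood at 18.7 CPM at day 21 and 68.7 CPM at day 7 (−1.88 [−2.03 to −1.72]). Psmb8 stood at 17.8 and 41.2 CPM (−1.21), Gbp2 at 10.6 and 23.02 CPM (−1.12), Gbp7 at 13.1 and 26.9 CPM (−1.04), and Ifih1, the cytosolic RNA sensor Mda5, at 12.1 and 25.2 CPM (−1.05 [−1.26 to −0.85]). Tap1 (−1.19), Psmb9 (−1.05), Oasl2 (−1.02) and Ifi44 (−1.81, on 3 and 13 UMIs) were the other 4. Of the 29 members 26 lay below 0. Ifi27l2a was the only member with an interval above 0, at 5.03 CPM at day 21 and 2.73 CPM at day 7 (0.88). Of 27 other interferon targets 10 were at least 2-fold lower and 1, Slfn5, higher; 0 of 5 receptors and 0 of 13 signalling genes were 2-fold apart. TMM scaling, which placed the centre of all genes at −0.22, gave −0.25 for the type I and −0.60 for the gamma-type sum. It left 2 members at least 2-fold lower and 2 higher, with no share over all genes counted at that scaling.

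This difference depended on which muscle progenitor-like cluster the cells came from. Cluster 0, led by Gal and Asb5, held 611 cells at day 21 and 2985 at day 7, and cluster 1, led by P2ry14 and Chrdl2, held 2669 and 468, so each cluster is mostly 1 library. Within cluster 0 the type I sum differed by −0.44 and the gamma-type sum by −0.22, and 4 of its 29 tested members passed 2-fold on the lower side and 0 on the higher side, against 8.52% and 3.41% of 13025 genes. Within cluster 1 the type I sum differed by −0.08 [−0.19 to 0.04] and the gamma-type sum by −0.01, and of its 28 tested members 1 was 2-fold or more below day 7 and 4 were above, against 6.5% and 4.36% of 12353 genes. Irgm1 was lower at day 21 in both, at 32.7 against 73.9 CPM in cluster 0 and 15.2 against 32.2 CPM in cluster 1. Cxcl10 was lower over the class, yet higher at day 21 within both clusters, at 55.0 against 49.0 CPM and 22.2 against 14.4 CPM; cluster 1, the poorer in Cxcl10, made up 2669 of the 3280 cells at day 21.

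**Figure D5:**
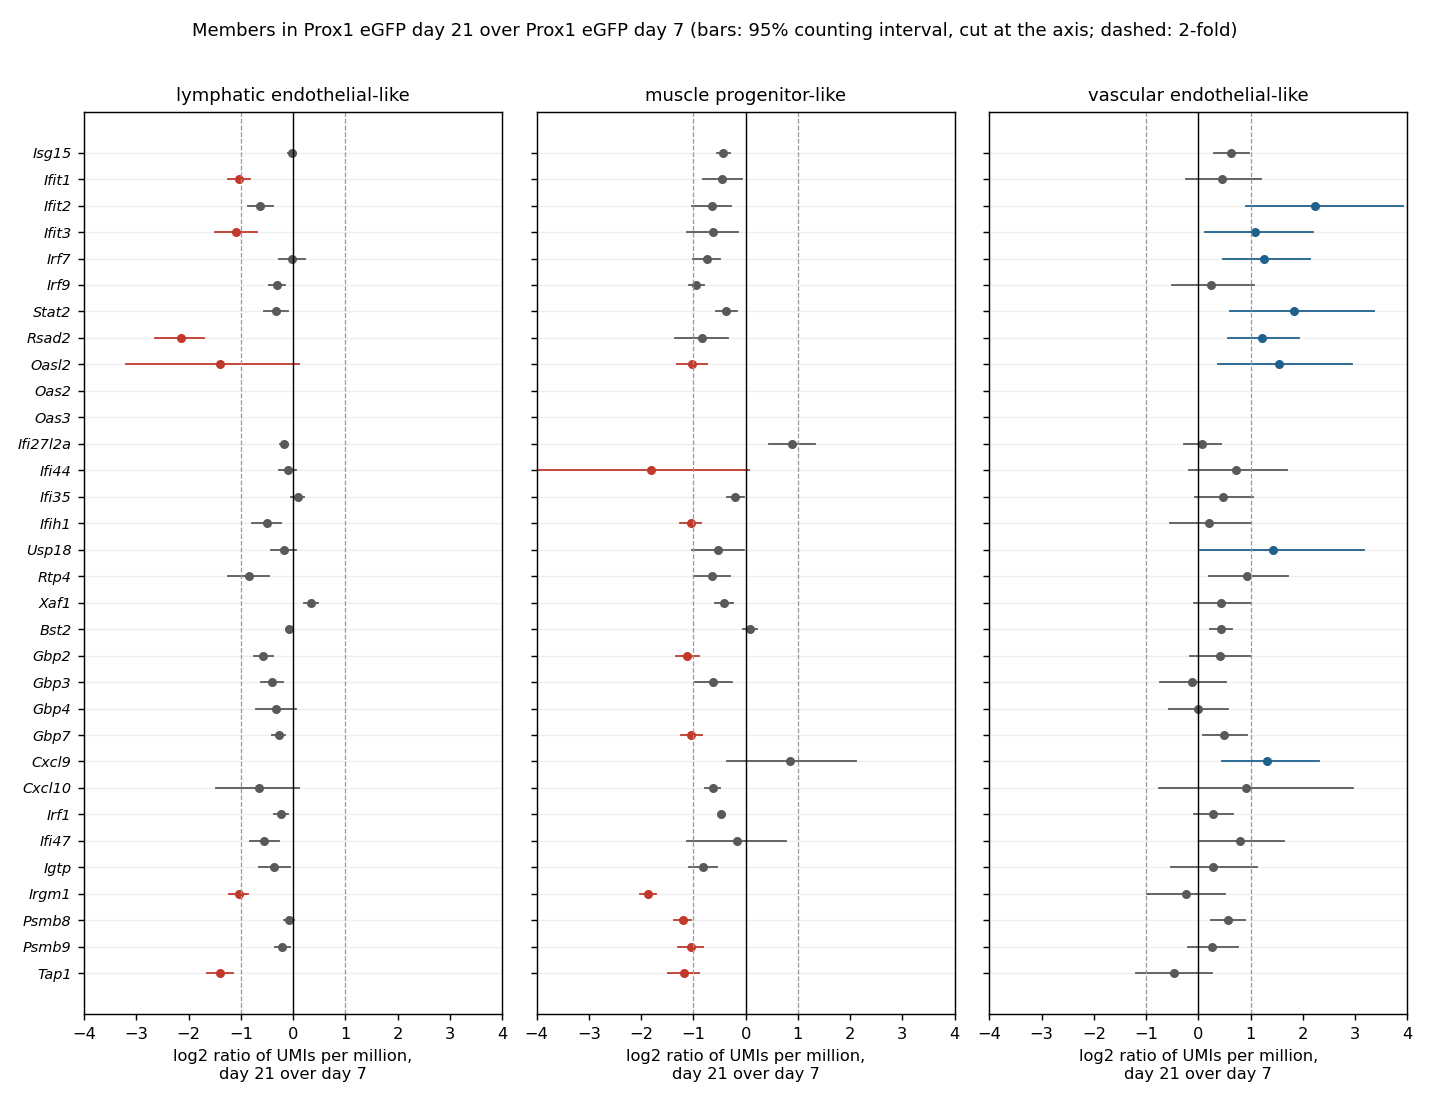
Log2 ratio of each tested member, day 21 over day 7 of Prox1 eGFP, with 1 panel a class, exact 95% conditional binomial intervals and dashed lines at 2-fold. Most lymphatic endothelial-like and muscle progenitor-like members lie below 0, most vascular endothelial-like members of day 21 above 0.

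Vascular-like cells differed the opposite way between the same 2 libraries. The type I sum differed by 0.57 [0.45 to 0.69] and the gamma-type sum by 0.38 [0.14 to 0.63], day 21 over day 7, in 121 and 33 cells; a stricter cell filter gave 0.35 for type I. Of 30 members tested (all but Oas2 and Oas3), 8 were at least 2-fold higher and 0 lower, against 7.24% and 12.7% of all 9885 genes; the medians were 0.49 for the members and −0.15 for all genes. Ifit2, another RNA-binding effector, had 47 UMIs at day 21 and 5 at day 7 (2.23 [0.91 to 3.92]), Stat2, the type I signal carrier, 43 and 6 (1.84 [0.60 to 3.36]), and Irf7, the factor that amplifies type I interferon, 77 and 16 (1.26 [0.47 to 2.14]). Rsad2 had 112 UMIs in 35 of 121 cells at day 21 and 24 UMIs in 3 of 33 cells at day 7 (1.22 [0.57 to 1.92]). Cxcl9 had 65 and 13 UMIs (1.32), with 41.5% and 53.8% of them in 1 cell. Oasl2 (1.55), the deconjugase Usp18 (1.43) and Ifit3 (1.09) were the other 3, all on 5 to 47 UMIs in either library.

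The make-up of the class moved with this difference. Cluster 17, the richer in type I members, held 57 of the 121 cells at day 21 and 4 of 33 at day 7. Within cluster 8, with 64 and 29 cells, the type I sum differed by 0.18 [0.01 to 0.36] and the gamma-type sum by 0.10, and 3 of 25 members were at least 2-fold higher and 0 lower, against 7.02% and 11.9% of 8863 genes. Red cell markers, all 5 of 5 present in both libraries, summed to 5934 CPM at day 21 and 1463 CPM at day 7, and fibroblast markers to 1723 CPM (8 of 8) and 116 CPM (4 of 8, with Pdgfra, Dpt, Lum and Clec3b at 0). The median vascular-like cell held 8279 UMIs at day 21 and 20128 at day 7. The part of these markers and of this depth gap in the result was not tested. All T/NK and keratinocyte markers were at 0 in both, and the macrophage markers summed to 19.0 and 12.7 CPM.

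At day 7, vascular-like cells of Vegfc CRE and Prox1 eGFP, 678 and 33 cells, held similar type I sums, with a difference of −0.03 [−0.13 to 0.09], Vegfc CRE over Prox1 eGFP. The gamma-type sum differed by −0.30 [−0.51 to −0.08], and Irf1 with the GTPases by −1.01 [−1.26 to −0.75]. Of 31 members tested (all but Oas3), 3 were at least 2-fold lower and 3 higher, against 17.9% and 7.17% of 12138 genes. Irf1 stood at 55.8 CPM in Vegfc CRE and 135 CPM in Prox1 eGFP (−1.27 [−1.61 to −0.92]), and Ifi27l2a at 59.5 and 163 CPM (−1.46 [−1.77 to −1.14]). Stat2 stood at 28.5 and 9.52 CPM (1.58 [0.44 to 3.04]) and Oasl2 at 35.6 and 11.1 CPM (1.68). Oas2 (−1.09) and Cxcl10 (1.26) had intervals that include 0. TMM scaling, which placed the centre of all genes at −0.33, gave 0.30 for the type I and 0.03 for the gamma-type sum. It left 1 member at least 2-fold lower, with no share over all genes counted at that scaling. Neutrophil markers summed to 324 CPM in Vegfc CRE, with 7 of 7 present, and were all at 0 in Prox1 eGFP. The median cell held 9637 UMIs in Vegfc CRE and 20128 in Prox1 eGFP. Line, sort, gene list, depth and library cannot be told apart here.

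Dendritic-like cells gave the only class with 30 cells in both an untreated and a treated Prox1 eGFP library, 44 at day 21 and 105 at day 0. The type I sum differed by 0.01 [−0.13 to 0.14] and the gamma-type sum by −0.33 [−0.68 to 0.02]. The type I sum was −0.37 without Ifi27l2a and Bst2 and 0.38 at clustering resolution 2.0, so its direction rests on these choices. Of 29 members tested (all but Oas2, Oas3 and Ifi44), 8 were at least 2-fold lower and 5 higher, against 17.5% and 12.3% of 9447 genes. Gbp4 had 1 UMI at day 21 and 54 at day 0 (−4.46 [−9.79 to −1.92]), Cxcl9 4 and 83 UMIs (−3.08 [−4.99 to −1.67]), and Usp18 5 and 85 UMIs (−2.79 [−4.45 to −1.51]). Irgm1 (−2.79), Ifit1 (−2.70), Irf7 (−1.75), Bst2 (−1.33) and Ifi35 (−1.05) were also lower. Gbp7 had 23 and 11 UMIs (2.36 [1.27 to 3.54]) and Ifi27l2a 313 and 245 (1.65 [1.40 to 1.90]); Gbp2 and Gbp3 were at 1.30 each, and Rsad2 at 1.98, with 86.5% of its day 21 UMIs in 1 cell. The class changed its make-up: cluster 13, led by Cd209a, held 35 and 51 cells and cluster 23, led by Ccl22 and Ccr7, 9 and 54. Within cluster 13 the type I sum differed by −0.29 and the gamma-type sum by 0.43, and macrophage markers summed to 958 CPM at day 21 and 131 CPM at day 0 over the class, whose part was not tested. No class had 30 cells in both Prox1 eGFP day 7 and day 0.

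Mature muscle-like cells had few UMIs of the members. Of 14 members tested, 4 (Irf9, Gbp7, Ifi27l2a and Bst2) were at least 2-fold lower at day 21 than at day 7, and 3 (Cxcl10, Irf1 and Igtp) higher, against 10.7% and 11% of 9112 genes. The intervals of Gbp7 (2 and 24 UMIs, −1.98 [−5.10 to 0.03]) and Igtp (4 and 6 UMIs, 1.02 [−1.25 to 3.10]) include 0. Irf9 had 1 UMI at day 21 and 26 at day 7. The type I sum differed by −0.83 [−1.27 to −0.41] and the gamma-type sum by 0.67 [−0.11 to 1.41]. With doublets removed at the expected rate no member was at least 2-fold higher, Irf1 stood at −0.64 in place of 1.47, and the gamma-type sum at −1.11. No share over all genes was counted at that setting. Cxcl10 had 19 UMIs at day 21 and 7 at day 7, with 94.7% of the day 21 UMIs in 1 cell. Igtp shares its strand and part of its span with Irgm2.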

How the data were processed

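Raw UMI counts per gene and cell were deposited by the authors, 1 filtered matrix per library; the submitters' processing notes name Cell Ranger 5.0.1 and mm10. The Prox1 eGFP day 7 matrix uses another gene list (27998 genes, the others 32285). The 27040 genes found by gene ID in all lists were kept, with 99.0% to 99.8% of the UMIs. Mx1 and Mx2 are not analysed here. Ratios against that library also set different gene lists against each other, and the part of this was not tested. Barcodes under 500 genes or 1000 UMIs, or over 15% mitochondrial UMIs, were removed (27 to 1654 a library), and so were Scrublet doublet calls (91 in Vegfc CRE day 7, and 0, 1 and 88 in Prox1 eGFP at days 0, 7 and 21; the day 7 caller did not work). Cells were clustered with scanpy 1.11.5 (2000 variable genes without the interferon genes, 30 components, 15 neighbours, Leiden resolution 1.0) and named from at least 3 markers. Members, lists and markers were chosen with earlier results of these data known. UMIs were summed per class and library; classes with 30 cells in both libraries and genes with 10 UMIs were compared, and 2-fold was the call. Named genes are members past 2-fold, with the strongest classes of each list chosen after their values were seen. The share of high-scoring cells uses 19 type I members where 21 were planned. Only the ratio step was run on simulated counts. These were drawn from the counting model that its intervals assume, with no spread between libraries or cells. Clustering, class names and scores were not simulated. Alternatives covered resolution, doublets, filters, scaling (edgeR 4.0.16 TMM factors, no test), thinning and gene lists. With 1 library a group there are no p-values.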

Additional observations from a re-analysis of the deposited data

Results flagged for a closer look

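Between days 21 and 7 of Prox1 eGFP the sums of the members differed in direction between classes. The type I log2 ratio was 0.57 in vascular endothelial-like cells, and −0.13 in lymphatic endothelial-like, −0.47 in muscle progenitor-like and −0.83 in mature muscle-like cells. The gamma-type log2 ratio was 0.38 in vascular endothelial-like cells, and −0.38 in lymphatic endothelial-like and −0.82 in muscle progenitor-like cells. With 1 library a day the difference between classes was not tested. Mx1, which only the Prox1 eGFP day 7 gene list names, had 11 UMIs there, with no control library to set beside it.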

How the results depend on the processing

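No paired analysis was possible because each group is 1 library. Log2 ratios below are day 21 over day 7 of Prox1 eGFP unless named otherwise, and the cause of a shift was not tested. Under TMM factors the type I sum was 0.023 in lymphatic endothelial-like cells (with Bst2 at 0.080), −0.25 in muscle progenitor-like cells (with Ifi35 at 0.025), 0.76 in vascular endothelial-like cells and 0.30 in vascular cells of Vegfc CRE over Prox1 eGFP. The gamma-type sum was −0.23 in lymphatic, −0.60 in muscle progenitor-like and 0.029 in Vegfc CRE vascular cells. Members at least 2-fold lower numbered 3 in lymphatic, 2 in muscle progenitor-like (with 2 higher) and 1 in Vegfc CRE vascular cells. Centred on the median of all genes, the type I sums were 0.045, −0.23, 0.72 and 0.26 in the same 4 comparisons, with Bst2 at 0.10 and Ifi35 at 0.048. The gamma-type sums were −0.20, −0.58 and −0.011, and the counts were again 3, 2 with 2 higher, and 1. The share of all genes past 2-fold was not counted under TMM factors or median centring.

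Single clusters were compared as an alternative chosen after the data were seen. The lymphatic type I sum was −0.32 in cluster 3, −0.22 in cluster 4 and 0.21 in cluster 18, and the gamma-type sum −0.68 in cluster 3. In cluster 4 Ifit2 stood at 0.31. In cluster 18, 2 of 27 tested members were at least 2-fold higher and 4 lower, against 4.92% and 11.3% of 11128 genes. In that cluster Ifi27l2a stood at 1.41, Rtp4 at 0.55, Xaf1 at −0.41, Bst2 at 0.089, Gbp7 at 0.26, Irf1 at 0.50 and Psmb9 at 0.29. In muscle progenitor-like cluster 0 the gamma-type sum was −0.22, 4 members were lower and Cxcl10 stood at 0.17. In cluster 1 the sums were −0.077 for type I and −0.015 for gamma-type, with 1 member lower and 4 higher. There Isg15 stood at 0.21, Ifit1 at 0.32, Ifit2 at 0.17, Ifit3 at 1.27, Irf7 at 0.38, Stat2 at 0.17, Rsad2 at 1.50, Usp18 at 0.50, Rtp4 at 0.65, Cxcl10 at 0.63 and Irf1 at 0.092. In vascular cluster 8 the sums were 0.18 and 0.10, with 3 members higher. For Vegfc CRE over Prox1 eGFP that cluster gave a type I sum of 0.30, with Isg15 at 0.50. Of its 30 tested members, 8 were at least 2-fold higher and 3 lower, against 7.91% and 19.5% of 11579 genes. In dendritic-like cluster 13, day 21 over day 0, the sums were −0.29 and 0.43. Of its 21 tested members, 8 were at least 2-fold higher and 6 lower, against 15.9% and 14.2% of 7971 genes.

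Without Ifi27l2a and Bst2 the type I sum was −0.17 in lymphatic, −0.60 in muscle progenitor-like, 0.77 in vascular and −0.37 in dendritic-like cells. At resolution 2.0 it was −0.062 in lymphatic, −0.41 in muscle progenitor-like and 0.38 in dendritic-like cells, and with doublet calls kept in −0.18 in lymphatic cells. A stricter cell filter gave 0.35 in vascular, −0.15 in dendritic-like and −0.21 in Vegfc CRE vascular cells. In mature muscle-like cells removal of doublets at the expected rate gave −1.34 for type I, −1.11 for gamma-type, 0 members higher and Irf1 at −0.64. The members higher there numbered 1 at resolution 0.5, at resolution 2.0, with interferon genes kept in the clustering and at a minimum of 30 UMIs (with 2 lower), and 6 at a minimum of 1 UMI. That minimum gave 2 members higher in lymphatic and 1 in muscle progenitor-like cells. The share of all genes past 2-fold was not counted at any of these settings, so these counts cannot be set against it.

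The share of high-scoring macrophage-like cells in Vegfc CRE day 7 was 17.8% at resolution 0.5, 22.6% at resolution 2.0, 14.9% with doublet calls kept in, 14.8% under the stricter filter and 10.9% without Ifi27l2a and Bst2. The shares of macrophage-like cells, vascular cells of day 21 and lymphatic cells of day 21 were 42.1%, 31.8% and 12.7% for at least 3 members, and 9.07%, 9.09% and 1.05% for at least 6. They were 11.1%, 9.92% and 1.79% when thinned to 1000 UMIs, 54.4%, 41.2% and 18.5% at 5000 UMIs, and 70.5%, 57.9% and 37.2% with no thinning. Without Ifi27l2a and Bst2 the vascular and lymphatic shares were 13.6% and 1.77%.

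The gamma-type share of macrophage-like cells was 7.63% at resolution 0.5, 7.24% with doublet calls kept in, 7.23% under the stricter filter and 3.81% with the Gbp genes alone, which gave 16.3% in vascular cells of Vegfc CRE day 7. With Irf1, Igtp, Irgm1 and Ifi47 added it was 13.6% in macrophage-like, 24.3% in Vegfc CRE vascular and 18.5% in lymphatic cells of day 7. Without Ifi27l2a and Bst2 these shares were 20.5%, 30.6% and 22.1%. The totals that follow count each value once for every alternative, so they are not numbers of separate results. A value was kept if it stayed inside the main counting interval, or, for a count of members, close to the main count. For the summary values 213 such pairs were kept, 92 moved and 4 reversed. For the other values 2121 pairs were kept, 469 moved and 26 reversed. Depth limits members with few UMIs: Oas2, Oas3 and Cxcl9 could not be compared in lymphatic cells.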
